A study of Xenopus laevis with 35 samples.

Results

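Gene expression was measured in the brain of Xenopus laevis tadpoles that were kept without a test chemical, as the control animals of a study of thyroid inhibitors. The control samples were chosen by their labels alone, and they are 9 of the 35 arrays of the series. They fall into 3 groups of 3 arrays, sampled 24, 48 and 96 h after the start of the exposure period. All animals were at Nieuwkoop and Faber (NF) stage 54, at the start of the phase of metamorphosis called prometamorphosis, and none of the 3 groups received an agent. Per the labels' protocols, 10 tadpoles per treatment and time were taken from a pair of tanks, the brain RNA was isolated from each animal, and 3 separate pools were made. One array thus measures pooled RNA of several animals, and the p-values rest on the spread between such pools. How the animals were divided over the pools, and whether the same tanks were sampled at each time, is not given in the sources used here, so time cannot be told apart from the tanks sampled. In whole brain, fewer cells of a type and less RNA per cell cannot be told apart.

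As background, stage 54 is when the tadpole's own thyroid hormone begins to rise. The hormone acts on the brain through nuclear receptors, which drive the division of progenitor cells along the ventricles, the maturation of neurons and the growth of myelin. The hypothalamus and pituitary in turn steer the thyroid through peptide hormones. Untreated brains sampled over time give the level of each gene against which a chemical is compared, and how far that level drifts.

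Each array carried 449 probes, of which 250 name one of 243 genes. The other 199 are unnamed and appear here under their ID numbers. Levels are intensities, scaled so that the median log2 level over 25 bright probes is the same on every array, and they are listed below in the order of replicates 1, 2 and 3. A level is the brightness of a probe and is compared only with the same probe on other arrays. A probe was counted as above background on an array where its level exceeded 2 SDs of that array's background noise, a threshold between 837 and 3318 scaled units. Between 79 and 147 probes passed it per array. Background noise before scaling was lowest on 48 h replicate 2, with an SD of 418 units, and highest on 24 h replicate 3, with 1627 units. The number of arrays and the height of the signal over background limit the precision of every value.

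As a group the 96 h arrays were less alike than the others, through their replicate 1. Over the 75 probes above background on at least 5 of the 9 arrays, called the brighter probes below, the mean correlation of an array with the others of its time was 0.683 to 0.785 at 24 h, 0.811 to 0.857 at 48 h and 0.462 to 0.618 at 96 h. The array of 96 h replicate 1 stood apart, with a mean correlation of 0.440 with the 8 other arrays. It correlated at 0.499 and 0.424 with 96 h replicates 2 and 3. These correlated with each other at 0.736, within the 0.624 to 0.828 of the 24 h pairs. For some of the values that rest on it, the value refitted and rescaled without it is given too. The scaling factor also moved with time, from 0.777 to 0.980 at 24 h, 0.912 to 1.04 at 48 h and 1.01 to 1.35 at 96 h. Each level was divided by the factor of its array, so any order of levels between times given below holds under this scaling.

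**Figure D1:**
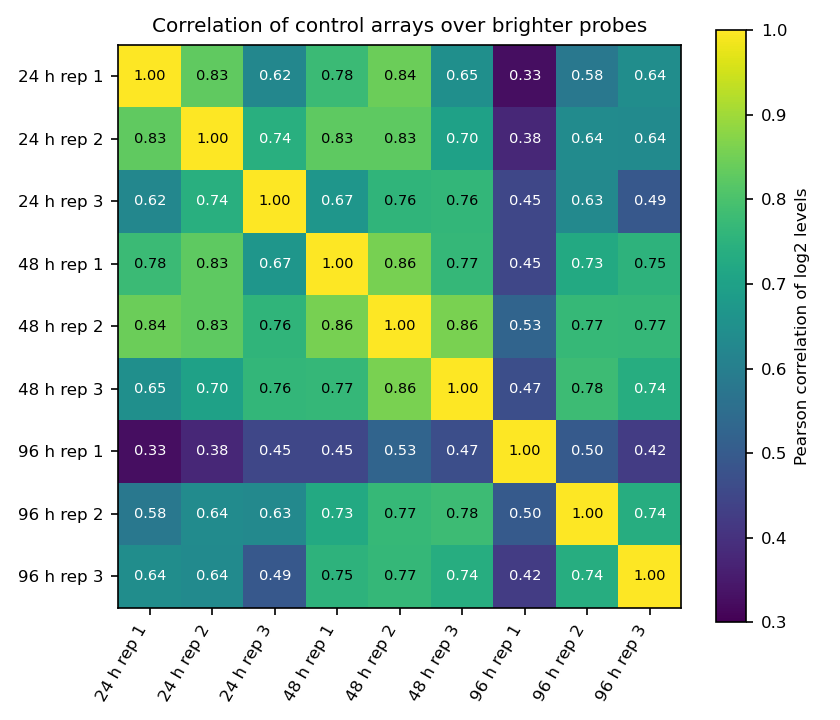
Pearson correlation of log2 levels between each pair of the 9 control arrays over the 75 brighter probes; rows and columns are arrays by time and replicate. The row of 96 h replicate 1 holds the lowest value, 0.325, and the highest value off the diagonal is 0.858.

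The untreated brain gave a signal above background on every array for a small core of genes. A total of 25 probes were above background on all 9 arrays, and 19 of these name 16 genes. The 75 brighter probes include 44 named probes for 40 genes. At the other end, 113 probes were above background on no array, and 261 were above it on 1 to 4 arrays. Of the named probes 17.6% were brighter probes, and of the unnamed ones 15.6%.

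**Figure D2:**
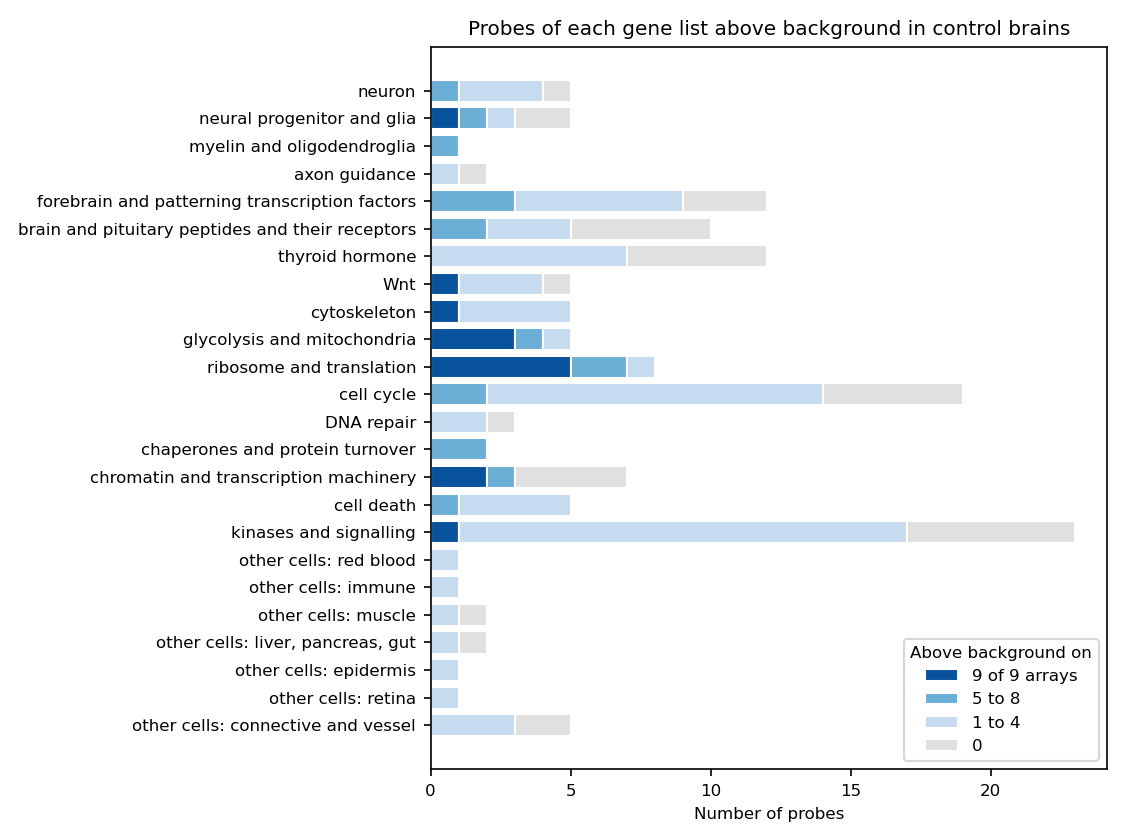
Number of probes of each of the 24 gene lists (x axis) by the number of control arrays on which they were above background (shade). Of 8 probes for ribosome and translation 5 were above background on all 9 arrays, while none of the 12 thyroid hormone probes reached 5 arrays.

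Of the 4 genes of ribosome and translation, 2 were in that core. All 5 probes of rpl8.S, which encodes a large-subunit ribosomal protein, were above background wherever they were measured. Their spread differed. Probe 929 lay between 19675 and 28783 and probe 273 between 21580 and 34217 over the 9 arrays, with SDs of 0.18 and 0.20 on the log2 scale. Probe 493 read 26346, 31879 and 31599 at 24 h, 24875, 37712 and 41213 at 48 h, and 6165, 32388 and 44862 at 96 h. Probes of the same gene thus disagreed on 96 h replicate 1, where probe 493 was low and probe 39 was at its highest level, 54427. The scatter of a single probe between arrays can therefore exceed that of its gene. The poly(A)-binding protein pabpc1.S, which binds the tails of mRNAs, was also on all 9 arrays and was lowest on 96 h replicate 1, at 5036 against 16923 to 26797 elsewhere (change from 24 to 96 h −0.80, SE 0.48, and 0.41, SE 0.26, without that array). A further ribosomal gene, rpl35a.S, was on 8 of 9.

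Genes of glycolysis were also well represented. Of 5 measured, gapdh.S, ldhb.S and the brain aldolase aldoc.L were above background on all 9 arrays, pkm.S on 8 and ldha.L on 4. The probe for gapdh.S, the glycolytic dehydrogenase often used as a reference gene, read 43400, 40263 and 48235 at 24 h, 39824, 37692 and 44751 at 48 h, and 24216, 36671 and 36046 at 96 h. Under the scaling used, which divided the 24 h arrays by 0.777 to 0.980 and the 96 h arrays by 1.01 to 1.35, all 3 levels at 96 h lay below all 6 earlier ones. Its fitted change from 48 to 96 h was −0.34 (SE 0.29, limma adjusted p = 0.966), within the spread, and 0.20 (SE 0.21) without 96 h replicate 1. The probe for pkm.S, pyruvate kinase, read 16585, 19453 and 21182 at 24 h and 15372, 12110 and 22613 at 48 h. At 96 h it read −764, 10313 and 13258, so it was below background on 96 h replicate 1 alone. Its change from 24 to 96 h was −1.82 (SE 0.85) with that array and −0.04 (SE 0.29) in the refit without it. The levels printed for 96 h replicates 2 and 3 still lay below every 24 h level, so the refit value also rests on the new scaling.

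Of the neuronal genes, gap43.S, a protein of growing axon terminals, was above background on 8 of 9 arrays. It read 19584, 17057 and 21082 at 24 h, 19048, 18085 and 16380 at 48 h, and 1158, 11942 and 11676 at 96 h. Under the scaling used every 96 h level lay below every earlier one. Yet the change from 48 to 96 h was −1.39 (SE 0.62, limma adjusted p = 0.691). It was −0.22 (SE 0.23) in the refit without 96 h replicate 1, which also changed the scaling. The other 4 neuronal genes were dimmer. The kinase camk2a.S and the RNA-binding protein fmr1.L were above background on 3 arrays each, the adhesion protein cntn1.L on 1, and the neurofilament ina.S on none. Of the 23 genes of the kinases and signalling list, ppp3ca.S alone was a brighter probe. The calcineurin subunit ppp3ca.S was on all 9 arrays, with 7633, 14043 and 10135 at 24 h, 7418, 6431 and 6013 at 48 h, and 5255, 6744 and 2053 at 96 h. Every 24 h level of ppp3ca.S was above every later one under the scaling used. The prohormone convertase pcsk2.L, which cuts peptide hormones to their active form and is outside the naming rule, was also on all 9. Its level of 16923 on all 24 h arrays is the value to which the median bright probe is set, so it carries no spread there; later it ranged from 8159 to 19299.

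Progenitor and glial genes were mixed. The gene id2.L, an inhibitor of differentiation factors, was on all 9 arrays, with 4661, 10076 and 4873 at 24 h, 4598, 5207 and 5537 at 48 h, and 6190, 4851 and 4582 at 96 h. Apart from 24 h replicate 2, these 9 values lay close together. The proneural factor neurog2.L was on 5 arrays, ranging from −1055 to 5260 with a median of 2325. The RNA-binding progenitor marker msi1.S was on 3 of 8, while the neuronal differentiation factor neurod1.L and the astroglial enzyme glul.L were above background on no array. Myelin basic protein, mbp.S, the only myelin gene measured, was on 6 of 9. It read 9434, 2546 and 626 at 24 h, 3152, 3148 and 1706 at 48 h, and 5359, 2308 and 3901 at 96 h. The 24 h arrays held both its highest and its lowest level, and the 95% interval of its change from 24 to 96 h ran from −1.14 to 1.62 on the log2 scale.

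The forebrain and patterning factors had 3 of 12 genes among the brighter probes. These were lmo3.S on 6 arrays and the homeobox genes dlx2.L and dlx5.L, which mark GABA-producing forebrain neurons and their precursors, on 5 each. The dlx2.L probe ranged from 1237 to 4395 with a median of 1925 and did not separate the times. The 3 factors above background on no array were irx3.L, dlx3.S and zic2.L. Of the axon guidance receptors, dcc.L was above background on 1 array and epha4.L on none.

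The cell cycle list had 19 genes, of which 2 were brighter probes. The replication clamp pcna.S, a marker of dividing cells, was on 7 arrays, with 8310, 4346 and 162 at 24 h, 6734, 3030 and −651 at 48 h, and 8024, 1851 and 2008 at 96 h. Its spread within each time was wider than any difference between times. The kinase cdk5.L, a neuronal kinase despite its name, was on 6 arrays and read 76539 on 96 h replicate 1 against 220 to 10807 on the other 8. The licensing genes mcm4.S and mcm5.L and the mitotic kinase cdk1.S were above background on no array. Among chromatin genes, hmgn3.L, which binds nucleosomes, and HMG-1, a DNA-bending protein, were on all 9 and the methyl-DNA-binding protein mbd3.S on 8, while the maintenance methyltransferase dnmt1.L was on none. Of 5 caspases, proteases of cell death and inflammation, casp1.L was on 6 arrays and the others on 1 each.

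Of the 10 genes for peptides of the brain and pituitary and their receptors, 2 were brighter probes, growth hormone and neuropeptide Y. Growth hormone, gh1.S, a product of the pituitary, was above background on 8 arrays, with 5269, 2720 and 6928 at 24 h, 4857, 7518 and 6642 at 48 h, and 6620, 4909 and 9971 at 96 h. The times overlapped, and the 95% interval of the change from 24 to 96 h ran from −0.41 to 1.33. Neuropeptide Y, npy.S, a feeding peptide of the hypothalamus and forebrain, was on 6 arrays and on none of those at 96 h. It read 4452, 5434 and 3431 at 24 h, 7447, 1083 and 2958 at 48 h, and −1767, 1598 and −918 at 96 h. The prolactin gene prl.1.L, also a pituitary hormone, was above background on no array, with levels from −1315 to 1540.

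The releasing hormone trh.S was on 1 array, at 3031 on 48 h replicate 3. Of the receptors, adcyap1r1.S, the receptor of the peptide PACAP, was on 2 arrays and the prolactin receptor prlr.L on 1 of 8. The neuropeptide Y receptor npy2r.S, the corticotropin-releasing hormone receptors crhr1.2.S and crhr2.S, and the binding protein crhbp.S were on none. In frogs that releasing hormone also drives the thyroid axis. Signals this close to background do not show that a gene was silent.

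Genes of the thyroid hormone list were dim. The list holds response genes, other nuclear receptors and a coactivator, but no thyroid hormone receptor or deiodinase. None of 12 was a brighter probe, and 5 were above background on no array: the glucocorticoid receptor nr3c1.L, the coactivator ncoa2.S, the retinoic acid receptor rara.L, pparg.L, and thdl17.L, named on the array as a thyroid hormone-regulated gene. The rapid response gene klf9.L was on 3 arrays, reading 3597, 1967 and −983 at 24 h, 2746, −543 and −660 at 48 h, and −483, 2115 and 1379 at 96 h. Arrays above and below background occurred at every time. The response gene thibz.L was on 1 array, at 4227 on 24 h replicate 3, and ranged from −868 to 2366 on the others. The protease fap.L was on 4 arrays, ppard.S on 3, thdl18.S on 2, and the receptor partner rxrb.L and ppara.S on 1 each. The 95% interval of the klf9.L change from 24 to 48 h ran from −2.18 to 1.01, so neither a lower nor a higher level within those limits is excluded for this gene. The interval was narrower for pparg.L, a receptor of fatty acid signals, which read 1538, 2413 and 1637 at 24 h, −1911, 427 and −948 at 48 h, and −2214, −228 and −662 at 96 h. Its groups at 24 and 96 h did not overlap (limma adjusted p = 0.0607), but with every array below background no fold can be given. Values below 0 entered the fit as 0, so all 3 levels at 96 h were equal there. The narrower interval and the p-value rest in part on that and not on better precision.

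Markers of other tissues were dim in the same sense. Of 13 genes for red blood cells, immune cells, muscle, gut and its glands, epidermis, retina, and connective tissue and vessels, none was a brighter probe. Those above background on no array were myf5.L, prss8.S, mmp21.L and mmp9.1.S. The collagen col2a1.L, a cartilage gene, was on 4 arrays and reached 29806 on 96 h replicate 1. The red cell gene hbd.S did not exceed 1148 on any array. The summed level of the 5 connective tissue genes ranged from 0 to 7020 at 24 h, 99 to 9367 at 48 h and 1094 to 38508 at 96 h, the last on 96 h replicate 1 with its high col2a1.L. The part of other tissues in the results below was not tested.

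**Figure D3:**
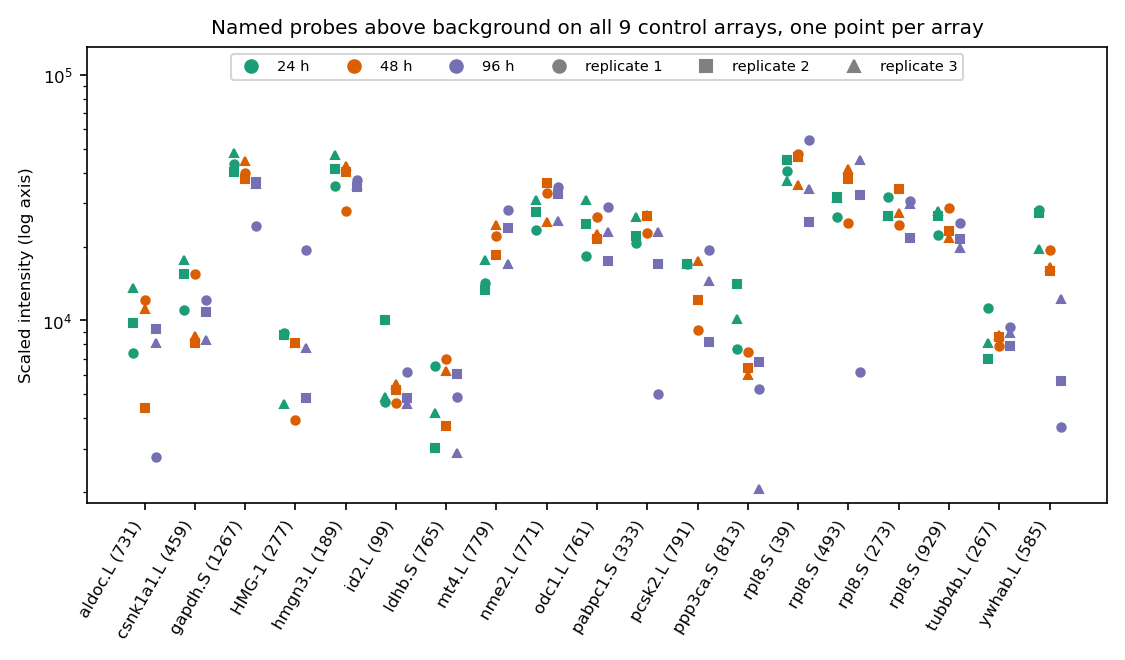
Scaled intensity (log axis) of the 19 named probes above background on all 9 arrays, one point per array, coloured by time and shaped by replicate; probes are in alphabetical order and are not to be ranked by height. The points of tubb4b.L lie close together, from 6968 to 11291, while those of ywhab.L spread from 3680 to 28216.

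Among the named probes above background on all 9 arrays, the steadiest were the tubulin tubb4b.L, rpl8.S by probes 929 and 273, hmgn3.L, and the nucleotide kinase nme2.L, with SDs of 0.17 to 0.22 on the log2 scale. All of these named probes are among the 25 used for scaling, so their spread is not independent of it. The tubb4b.L level was 8789 ± 2241 at 24 h, 8397 ± 449 at 48 h and 8714 ± 771 at 96 h (SD, n = 3 arrays each). Its change from 24 to 96 h was 0.01 with a 95% interval from −0.63 to 0.65. The most variable were the signalling adaptor ywhab.L with an SD of 0.89, rpl8.S by probe 493 with 0.79, pabpc1.S with 0.69, and aldoc.L and ppp3ca.S with 0.62 each. The levels of ywhab.L, rpl8.S by probe 493, pabpc1.S and aldoc.L were each lowest on 96 h replicate 1.

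From 24 to 48 h, no probe changed past the threshold. In the limma fit of the 9 arrays 0 of 444 probes were called at an adjusted p under 0.05, which is 0% of those tested, and 25 had an unadjusted p under 0.05, 6 higher (1.35%) and 19 lower (4.28%), where chance gives 22.2 in all. The lowest adjusted p was 0.119. It belongs to dcc.L, the netrin receptor of growing axons, which was above background on 1 array alone and is named here after its value was seen. The 2 groups did not overlap for 23 probes higher at 48 h (5.18%) and 38 lower (8.56%). A fit over all 35 arrays, which takes the spread from the exposed groups as well, called 6 probes, and no other alternative called more than 2. Without 24 h replicate 1 the unnamed probe 193 was called, at −2.20 (limma adjusted p = 0.0282).

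The probes named for higher values, which had to be above background on at least 2 of the 3 arrays at 48 h, were mostly near background. The Wnt receptor fzd2.S read −2505, −810 and −2838 at 24 h and 5225, 868 and 1705 at 48 h (limma adjusted p = 0.516). The replication kinase cdk2.S read 678, −1943 and −4458 against 7707, 854 and 2664 (limma adjusted p = 0.726). The membrane protein adam22.L, which anchors synaptic proteins in mammals, read −1606, −444 and −2483 against 1361, 949 and 2863 (limma adjusted p = 0.726). For these genes every 24 h array was below background and the groups did not overlap.

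Among probes above background on at least 2 of the 3 arrays at 24 h, the smallest p for a lower value at 48 h was that of crx.L, a photoreceptor and pineal homeobox gene fixed here as a retina marker. It read 1899, 7365 and 3443 at 24 h and −781, 130 and −141 at 48 h, at least 2.35-fold lower (limma adjusted p = 0.175). At least N-fold here means against the lowest level that counts as signal, since the dim group has no level of its own, and the bound is rough because 1 of the bright arrays was itself below background. The repair gene xpa.L, which recognises DNA damage, read 2802, 4840 and 6408 at 24 h and 2071, 2535 and −1005 at 48 h (limma adjusted p = 0.726). The unnamed probe 283, a brighter probe, read 11628, 11073 and 15307 at 24 h, and 2541 and 3206 on the 2 arrays with a value at 48 h (change −1.78, SE 0.55, limma adjusted p = 0.726). None of these passed. In each the groups were apart, as for 8.56% of all probes tested downward, but the probes were named for their small p.

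Among brighter probes no difference between 24 and 48 h passed the threshold of the adjusted p. When limma tested the brighter probes alone, 6 had an unadjusted p under 0.05 for this pair of times. The metallothionein mt4.L, a metal-binding protein outside the naming rule, had all 3 levels higher at 48 h. It read 14261, 13298 and 17702 against 22082, 18564 and 24500 (change 0.50, SE 0.30, limma adjusted p = 0.858). Groups were apart in this way for 5.18% of all probes tested upward and 8.56% downward. For ywhab.L all 3 were lower, with 28216, 27337 and 19605 against 19437, 15880 and 16525 (change −0.50, SE 0.40, limma adjusted p = 0.892). The unnamed probe 357 went from 10187, 11220 and 8545 to 16923, 16923 and 16372 (change 0.69, SE 0.27, limma adjusted p = 0.726), with 16923 again the value of the median bright probe.

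**Figure D4:**
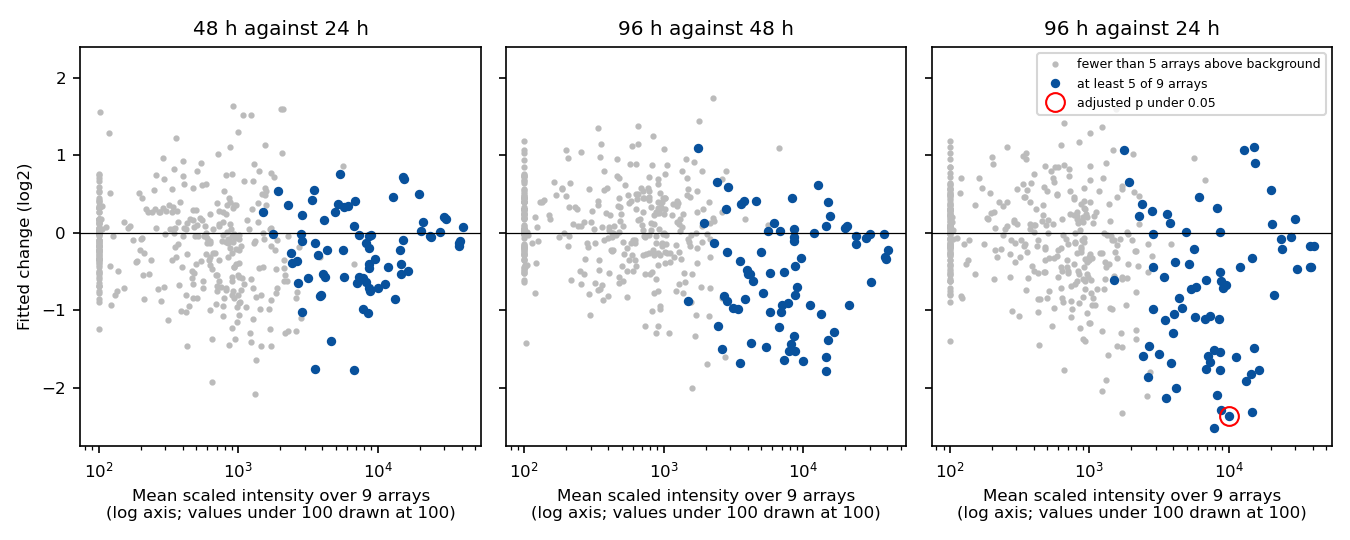
Fitted log2 change (y axis) against the mean scaled intensity of each probe over the 9 arrays (x axis, log) for the 3 pairs of times; dark points are the 75 brighter probes and the circle marks probe 909, the one probe past an adjusted p of 0.05. At 96 h against 24 h, 58 of the 75 brighter probes lie below 0.

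From 48 to 96 h, again 0 of 444 probes were called by limma (0%), with 32 at an unadjusted p under 0.05, 11 higher (2.48%) and 21 lower (4.73%), against 22.2 by chance. The lowest adjusted p was 0.0547, for the unnamed probe 809, which read 3330, 2194 and 4901 at 48 h and −1047, −523 and −556 at 96 h. That is at least 1.59-fold lower, with every 96 h array below background. Its 96 h values, all below 0, entered the fit as 0, so the p-value rests in part on that. Groups did not overlap for 18 probes higher at 96 h (4.05%) and 32 lower (7.21%). The comparison shares its 48 h arrays with the one before, so a probe that is high on those arrays stands out in both. That was the case for fzd2.S, which read −471, −581 and 339 at 96 h. With all 35 arrays in the fit 16 probes were called, 14 of them lower, and under the other alternatives at most 1.

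Of the named genes, cct3.S had the smallest p among lower values. It is a subunit of the chaperonin that folds actin and tubulin. Its levels were 11536, 7334 and 12279 at 24 h, 8119 and 12049 on the 2 arrays with a value at 48 h, and 2062, 2193 and 3088 at 96 h. All 96 h levels lay well under all earlier ones, and the change from 48 h was −1.64 (SE 0.37, limma adjusted p = 0.352). The antiproliferative gene btg1.S, which in mammals slows the division of cells, read 2169, 2312 and 2831 at 48 h. At 96 h it read −7, −220 and 1080, at least 1.17-fold lower (limma adjusted p = 0.366). This bound is rough, since 48 h replicate 1 was itself below background. The forebrain factor lmo3.S, outside the naming rule for this comparison, was nearly constant at 48 h with 5477, 5428 and 5379, and read −448, 3674 and 484 at 96 h (change −1.68, SE 0.60, limma adjusted p = 0.612; without 96 h replicate 1 −1.04, SE 0.64).

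Higher values at 96 h, for probes above background on at least 2 of the 3 arrays at that time, came from dim and brighter probes alike. The lamin lmnb1.L, a protein of the nuclear envelope, read 349 and −792 on the 2 arrays with a value at 48 h and 6925, 3453 and 1010 at 96 h (limma adjusted p = 0.633). At 24 h it read 4002, 372 and 2759, above background on replicate 1 alone. The kinase csk.L, which switches off Src kinases, read −5, 380 and 2765 at 48 h and 2722, 2467 and 3380 at 96 h (limma adjusted p = 0.953), and the groups overlapped. The PACAP receptor adcyap1r1.S read −27, 287 and 877 against 4974, −1284 and 2180 (limma adjusted p = 0.953). Its change was 0.95, and 0.51 (SE 0.61) without 96 h replicate 1. The unnamed probe 187 separated the times, with 432, 942 and 1363 against 8283, 3137 and 2820 (change 1.44, SE 0.40, limma adjusted p = 0.431).

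Over the whole span from 24 to 96 h, limma called 1 of 444 probes, 0.225%, and it was lower. This was the unnamed probe 909, which read 21390, 15643 and 15108 at 24 h, 7764, 11703 and 11122 at 48 h, and 2051, 3438 and 1946 at 96 h. The levels of the 3 times did not overlap. The change was −2.37 (SE 0.31, 95% interval −3.08 to −1.66, limma adjusted p = 0.0179), and all 3 arrays at 96 h were lower. The call did not hold without scaling, where the change was −2.02 (limma adjusted p = 0.0522), or with quantile normalization, at −1.85 (limma adjusted p = 0.174). It held without 48 h replicate 1 or 2 but was lost without any of the other 7 arrays in turn, with changes from −2.48 to −1.77 and limma adjusted p from 0.0522 to 0.11. At an unadjusted p under 0.05 there were 44 lower (9.91%) and 10 higher probes (2.25%), against 22.2 by chance in all. Groups did not overlap for 50 probes lower (11.3%) and 21 higher (4.73%). The moderated F test over the 3 times called 0 probes (0%), with 44 at an unadjusted p under 0.05 (9.91%) and a lowest adjusted p of 0.053.

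Among named genes above background on at least 2 of 3 arrays at 24 h, xpa.L had the smallest p for a lower value. It was above background on all 3 arrays at 24 h and below 0 on all 3 at 96 h, where it read −1104, −373 and −855. That is at least 2.14-fold lower (limma adjusted p = 0.0607). These 96 h values entered the fit as 0, so the p-value rests in part on that. Probe 187 had the smallest p among higher values, from 312, −737 and −399 at 24 h to the levels given above, at least 1.43-fold higher (limma adjusted p = 0.0607). Without 96 h replicate 1, probes 187 and 357 were called higher (limma adjusted p = 0.0454 for each) and 909 was not. The unnamed probe 1173 went from 24649, 21263 and 19195 to 5996 and 1792 on the 2 arrays with a value at 96 h (change −2.32, SE 0.45, limma adjusted p = 0.0607). The unnamed probe 365 went the other way, from 9409, 5965 and 12311 to 21104, 22427 and 17767 (change 1.10, SE 0.34, limma adjusted p = 0.158), with no overlap.

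**Figure D5:**
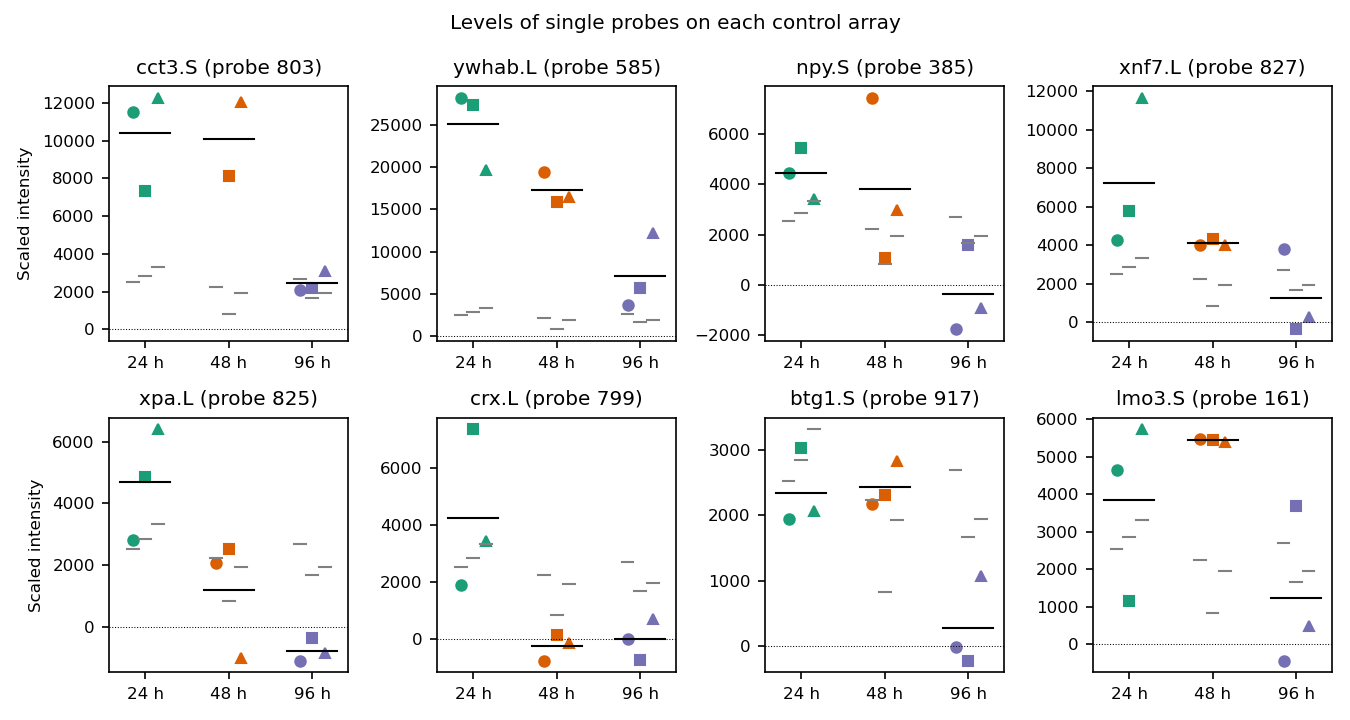
Scaled intensity (y axis, linear) of 8 named probes on each control array by time; colours are times, symbols are replicates 1 (circle), 2 (square) and 3 (triangle), black lines are means and short grey lines the background threshold of each array. The genes were picked for display after their values were seen; for ywhab.L the mean was 25053 at 24 h and 7179 at 96 h, and npy.S and xpa.L were above background on 0 of 3 arrays at 96 h.

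The brighter probes as a whole were lower at 96 h under the scaling used. They were chosen on these same levels, so a probe could enter without any array of 1 time. Of the 75, 3 were above background on no array of some time, and for each that time was 96 h. How far this choice of probes moved the medians was not tested. The median change of the brighter probes was −0.17 from 24 to 48 h, −0.51 from 48 to 96 h and −0.68 from 24 to 96 h, beside −0.11, 0.01 and −0.14 over all probes tested. Mean log2 levels were highest at 24 h and lowest at 96 h, with 48 h between, for 38 of the 75, and in the opposite order for 7. The size of that shift rested on the scaling and on single arrays, most of all 96 h replicate 1 for the span from 24 to 96 h. From 24 to 96 h the median was −0.34 as deposited, −0.33 with quantile normalization and −0.24 with the median of all probes, and it was −0.03 without 96 h replicate 1, when 38 of the brighter probes were lower and 35 higher. From 24 to 48 h the sign turned, to 0.02, 0.05 and 0.17 under the same scalings and 0.07 without 96 h replicate 1. The median from 24 to 96 h was −0.20 without 96 h replicate 3 and −0.34 without 48 h replicate 3. Without each of the remaining arrays it was −0.55 to −0.68. From 48 to 96 h it was −0.10, −0.16 and −0.03 without 96 h replicates 1, 2 and 3, and −0.18 to −0.52 without each earlier array. Each of these fits also chose its scaling probes anew. Under the scaling used, on all 3 arrays at 96 h 14 to 17 of the 55 to 57 probes above background on at least 7 arrays lay over 1 log2 unit below the median of the other 8 arrays, against 0 to 5 on the earlier arrays. Over 1 log2 unit above that median lay 9, 8 and 3 probes on the 24 h arrays, and 0 to 4 on the later ones. Both counts are given under this scaling only, so they do not separate low 96 h arrays from the effect of the scaling.

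When only the 75 brighter probes were tested, limma called 20 from 24 to 96 h, 18 lower and 2 higher, 1 from 48 to 96 h and 0 from 24 to 48 h. That choice of probes uses the levels under test: npy.S and the unnamed probe 699, both called, passed it through 24 and 48 h alone, while probe 187, above background on 4 arrays, was left out. The calls are therefore a description. The 6 named ones are cct3.S, ywhab.L, xnf7.L, npy.S, dlx5.L and clcn3.S, all lower, of which clcn3.S and xnf7.L are named after their values were seen. The count of 20 became 5 as deposited, 0 with quantile normalization and 0 with the median of all probes. It became 10 without 96 h replicate 1 and 1 without either 24 h replicate 1 or 48 h replicate 3. The levels of these genes are therefore given as measured, and their adjusted p over all 444 probes ranged from 0.0607 to 0.158.

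The signalling adaptor ywhab.L, one of the 14-3-3 proteins that bind phosphorylated partners, read 3680, 5678 and 12179 at 96 h, below every earlier level (change from 24 h −1.77, SE 0.40, limma adjusted p = 0.0711; without 96 h replicate 1 −0.85, SE 0.33). The chloride transporter clcn3.S read 10516, 12642 and 11844 at 24 h, 12544 and 4122 on the 2 arrays with a value at 48 h, and 5579, 2147 and 3020 at 96 h (change −1.51, SE 0.45, limma adjusted p = 0.158). The maternal nuclear factor xnf7.L read 4293, 5785 and 11676 at 24 h, 4033, 4320 and 3991 at 48 h, and 3820, −376 and 244 at 96 h (95% interval of the change −3.30 to −0.69, limma adjusted p = 0.137). In all of these the 24 and 96 h groups did not overlap, as for 11.3% of all probes tested downward. The genes were named as calls in this same comparison, so that separation adds nothing to the calls. The homeobox gene dlx5.L went from 6020, 2524 and 3720 to 118, 2242 and −990 (change −1.59, SE 0.48, limma adjusted p = 0.142; without 96 h replicate 1 −1.03, SE 0.57), while dlx2.L had a change of 0.21 (SE 0.35, limma adjusted p = 0.887). The difference between both genes was not tested. For npy.S, whose levels are given above, the level at 96 h was at least 2.10-fold lower than at 24 h (limma adjusted p = 0.137). Its fitted change was −1.87, and −1.33 (SE 0.64) without 96 h replicate 1.

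Gene groups gave no count of called members in any of the 3 pairs of times. Of the 24 lists, covering 142 named probes, 0 members were called higher or lower, against 0%, 0% and 0.225% of all probes. From 24 to 96 h the list medians were −0.91 for the 5 neuronal genes and −0.63 for the 5 of glycolysis. For the 8 probes of ribosome and translation the median was −0.31, and for the 19 of the cell cycle 0.05. It was 0.07 for the 10 peptides and receptors and −0.08 for the 12 of the thyroid hormone list. Beside these, the median was −0.14 over all probes and −0.68 over the 75 brighter probes. The lists differ in brightness. Brighter probes made up 1 of 5, 4 of 5 and 7 of 8 probes of the first 3 lists, and 2 of 19, 2 of 10 and 0 of 12 of the others. Over all 24 lists the medians from 24 to 96 h ran from −1.9 for 1 retina marker to 0.55 for 1 immune marker. They were −1.2 for the 2 genes of chaperones and protein turnover and −0.89 for the 2 of axon guidance. The summed level of the neuronal genes ranged from 28330 to 30994 at 24 h, 19252 to 21944 at 48 h and 2828 to 15431 at 96 h. That of the glycolysis genes ranged from 75509 to 89779, 59838 to 86914 and 32185 to 62899. A sum is weighted to its brightest probes, and gap43.S alone made up most of the neuronal sum on every 24 and 48 h array. Under the scaling used, which divided the 24 h arrays by 0.777 to 0.980 and the 96 h arrays by 1.01 to 1.35, every 96 h sum of both lists lay below every 24 h sum. That order also held for the Wnt, DNA repair, axon guidance and retina lists, and no list showed the reverse. The lowest sums of the neuronal and glycolysis lists were those of 96 h replicate 1. Under the same scaling the other 96 h arrays gave 14862 and 15431 for the neuronal genes and 61965 and 62899 for glycolysis. Refitted and rescaled without that replicate, the list medians were −0.65 for the neuronal genes, 0.37 for glycolysis and 0.25 for ribosome and translation. The last 2 turned sign, in a refit that also changed the scaling. In that refit gap43.S, the 1 neuronal gene among the brighter probes, had a change of −0.04 (SE 0.23) from 24 to 96 h.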

How the data were processed

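The authors deposited 1 table of intensity values, linear whole numbers for 898 spots, with values below 0 and empty cells, so a background had been subtracted. Per the labels' protocols, amplified RNA was copied to 32P-labelled cDNA for a 1-channel array; the sources used here do not give the scanner, background method or scaling. Neighbouring spots were averaged to 449 probes. The background SD was the root mean square of an array's negative values. Arrays were scaled to the median of the 25 probes above background on all 9, values below 0 were set to 0, an offset of 1116 (the median scaled background SD) was added, and log2 was taken, so changes of dim probes are understated. The spread of such probes is understated too where values fell below 0. Probes with at least 2 values per group (444; 5 not tested) were fitted with limma 3.58.1 in R 4.3.3 on the 9 arrays, with Benjamini-Hochberg adjustment and calls at an adjusted p under 0.05. The fit was tested on simulated data. A group above background on no array has only a bound. Figures used matplotlib.

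The members and gene lists were chosen with earlier results of these data known, and 6 pattern mis-hits were taken out of lists after the files were read. Named were, per consecutive pair of times, up to 6 probes each way by p (3 each way for 96 h against 24 h), where fewer passed from those above background on at least 2 of 3 arrays of the higher group, per list up to 4 probes above background on at least 5 arrays, all peptide and thyroid members, and the 5 steadiest and 5 most variable. Genes were named from the platform annotation, with 247 probes updated to current symbols and 3 kept as nf1-c1, HMG-1 and Chrna1; whether a probe separates .L and .S copies is not given. Alternatives covered scaling, offset, dim probes, single spots, all 35 arrays, trend, array weights, replicate number and leaving out each array. Combining the filter on dim probes with another scaling or with leaving out an array was added after seeing the data. Same-numbered arrays of different times had correlations of deviations from −0.35 to 0.47, with 2 of 9 over 0.1. So few values cannot decide whether the numbers pair the arrays. The reported fit did not pair them.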

Additional observations from a re-analysis of the deposited data

How the results depend on the processing

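From 24 to 48 h the count of called probes was 0 in the reported fit, 2 with the even-numbered spot alone, 6 with all 35 arrays, 1 with array weights, and 0 to 1 when each array was left out in turn. From 48 to 96 h it was 0 as reported, 1 with quantile normalization, 1 with the all-probe median, 1 with the offset at the 5th percentile (110), 1 with only the brighter probes, 16 with all 35 arrays, and 0 in every fit without 1 array. From 24 to 96 h it was 1 as reported, 0 as deposited, 11 with an offset of 2 background SDs (2231), 20 with only the brighter probes, 6 with the odd-numbered spot alone, 52 with all 35 arrays (9 higher and 43 lower), 0 with the replicate block, 5 with array weights, and 0 to 2 with each array left out; without 96 h replicate 1 the 2 calls were higher, and with quantile normalization or the all-probe median the 1 call was probe 187, higher. For any change over the 3 times it was 0 as reported, 2 with quantile normalization, 2 with the all-probe median, 1 with either other offset, 1 with only the brighter probes, 1 with the even-numbered spot alone, 53 with all 35 arrays, 1 with the trend, 8 with array weights, and 0 to 1 with each array left out. The larger counts with all 35 arrays come with a spread estimated mostly from the 26 exposed arrays, which was not used for the reported values. The count of probes above background on all arrays was 25, from 18 to 28 under other thresholds and 25 to 36 without 1 array. Probe 909 from 24 to 96 h had an adjusted p of 0.125 with the replicate block, and in no setting did a probe reverse its sign after being called. Of the values for single probes, with or without a gene name, under alternatives, 584 kept their side of the threshold, 35 moved past it and 13 fell short of it, all 13 for probe 909, and the cause was not tested. Signal over background limits what can be seen: the median SE of a change was 0.51 for the brighter probes on the log2 scale in the 2 consecutive pairs of times.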
